A study of Mus musculus with 6 samples.

Results

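The genes described here are 9 mouse response genes of the EGR, NR4A and IER families, namely Egr1, Egr2, Egr3, Nr4a1, Nr4a2, Nr4a3, Ier2, Ier3 and Ier5, found by row name among 28327 genes in the Drop-seq tables and 49492 in the bulk tables. All 9 were present in both kinds of table. They were followed in glomeruli, the filtering units of the kidney, taken from 8-week-old males of the CD1 IGS outbred stock. The dissociated bulk library (1 sample) was made from 95 ng of RNA of sorted single cells fixed in 80% methanol/PBS, and the whole bulk library (1 sample) from 500 ng of RNA of live, unfixed glomeruli. The Drop-seq libraries (replicates 1 to 4) were made from dissociated cells fixed in the same way, so no Drop-seq sample of undissociated cells stood beside them. No genetic change or drug was named for any group, and nothing in the labels says whether the replicates are from different mice. A p-value therefore reflects the spread from library to library, which may be technical only.

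Immediate-early genes are transcribed when growth factors, calcium, cyclic AMP or mechanical stress reach the nucleus, without the need for new protein. ERK kinases act on serum response factor with its ELK partners, which bind the CArG box, and protein kinase A acts on CREB, which binds the cyclic AMP response element. EGR1, EGR2 and EGR3 are zinc finger factors that bind GC-rich sites, and NR4A1, NR4A2 and NR4A3 are nuclear receptors that work without a known natural ligand. Of IER2, IER3 and IER5, IER3 is tied to cell survival and IER5 to the heat shock factor HSF1. Genes of this class are known from other tissues to rise while cells are being dissociated.

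The promoters of the 3 NR4A genes are shown because all 3 were called higher in mural-like cells, though none of them only there. That of Egr2 is shown because its bulk change was the largest of the 9. That of Ier5 is shown because it was the one member without a rise in bulk. The windows run from 250 bases before the RefSeq start to 50 bases after it (RefSeq, GRCm38.p6, printed 5′ to 3′ on the gene's strand). They are chr15:101266596-101266895 (+) for Nr4a1, chr2:57123954-57124253 (-) for Nr4a2, chr4:48045055-48045354 (+) for Nr4a3, chr10:67537619-67537918 (+) for Egr2 and chr1:155099587-155099886 (-) for Ier5. Capitals mark TGACG, the half-site of the cyclic AMP response element, on either strand (CGTCA on the printed strand is the same motif), and in Egr2 also the CArG box.
Nr4a1: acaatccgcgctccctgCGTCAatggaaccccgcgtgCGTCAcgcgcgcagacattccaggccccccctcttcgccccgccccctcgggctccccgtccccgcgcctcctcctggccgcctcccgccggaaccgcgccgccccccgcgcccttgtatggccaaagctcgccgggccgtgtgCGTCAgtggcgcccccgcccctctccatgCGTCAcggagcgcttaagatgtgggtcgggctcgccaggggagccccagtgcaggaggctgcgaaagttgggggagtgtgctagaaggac
Nr4a2: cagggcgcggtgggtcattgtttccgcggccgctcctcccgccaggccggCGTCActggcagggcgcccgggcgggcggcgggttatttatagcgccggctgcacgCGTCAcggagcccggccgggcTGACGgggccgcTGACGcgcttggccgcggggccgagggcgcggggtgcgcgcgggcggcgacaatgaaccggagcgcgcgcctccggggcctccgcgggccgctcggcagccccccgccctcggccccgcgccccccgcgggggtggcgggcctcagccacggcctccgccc
Nr4a3: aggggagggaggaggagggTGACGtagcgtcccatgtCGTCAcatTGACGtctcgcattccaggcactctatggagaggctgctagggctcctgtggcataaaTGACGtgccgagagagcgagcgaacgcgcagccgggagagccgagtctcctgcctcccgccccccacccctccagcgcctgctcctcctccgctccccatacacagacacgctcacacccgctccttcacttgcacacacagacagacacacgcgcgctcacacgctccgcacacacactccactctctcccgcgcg
Egr2: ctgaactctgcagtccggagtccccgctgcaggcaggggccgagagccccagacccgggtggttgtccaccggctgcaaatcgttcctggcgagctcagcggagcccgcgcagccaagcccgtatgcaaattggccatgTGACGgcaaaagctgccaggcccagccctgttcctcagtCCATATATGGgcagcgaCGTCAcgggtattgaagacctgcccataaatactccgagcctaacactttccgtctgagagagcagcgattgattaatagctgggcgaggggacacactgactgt
Ier5: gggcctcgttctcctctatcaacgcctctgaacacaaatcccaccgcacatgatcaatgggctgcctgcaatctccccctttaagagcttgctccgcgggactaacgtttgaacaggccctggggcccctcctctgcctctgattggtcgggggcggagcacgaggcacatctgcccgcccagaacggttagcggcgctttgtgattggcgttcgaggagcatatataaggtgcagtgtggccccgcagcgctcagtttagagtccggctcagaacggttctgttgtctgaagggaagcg

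Each NR4A window held 4 half-sites, which began 233, 213, 69 and 40 bases before the start in Nr4a1, 200, 144, 123 and 111 bases before it in Nr4a2, and 231, 213, 205 and 147 bases before it in Nr4a3. Of 32851 such windows of 27025 genes, 20.8% held at least 1 half-site and 0.231% (76 windows) held at least 4. The cut at 4 was set after the NR4A windows had been seen. Egr2 held 2 half-sites, at 111 and 55 bases before the start, and a CArG box at 72 bases before it, a motif found in 1.63% of all windows. Ier5 and Ier3 held 0 of these motifs. The EGR site GCGNGGGCG stood once in Nr4a1, 60 bases before the start, and once in Nr4a2, 74 bases before it, against 5.55% of all windows. Both strands were searched for each motif. The full element TGACGTCA (1.79% of windows) and the NR4A site AAAGGTCA (1.51%) were in none of the 6 member windows matched. A match is a run of letters, not a bound site. Egr2 had 5 windows in the table, of which the one nearest the start of its first GENCODE transcript was used.

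Of the 9 genes, 8 took a far larger share of the RNA in dissociated cells than in whole glomeruli. Egr1, the most abundant of the 9 in read counts, had 81463 counts in dissociated cells and 7553 in whole glomeruli. That is 3686 CPM (counts per 1000000, after TMM scaling; 95% Poisson interval 3660 to 3711) in dissociated cells, against 239 CPM (234 to 245) in whole glomeruli, a ratio of 15.4 (95% binomial interval 15.0 to 15.8). Egr1 ranked 20th of all genes by counts in the dissociated library and 613th in the whole library. These intervals cover counting error only, there was 1 library a group, and no test of the conditions was possible. In bulk samples fewer cells of a type and less RNA per cell cannot be told apart.

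The gene with the largest ratio was Egr2, which in the nerve is known as a regulator of myelination. It had 2661 counts (120 CPM) in dissociated cells and 15 counts (0.475 CPM) in whole glomeruli, a ratio of 253 (153 to 453). It stood 6th of 12692 genes with at least 100 counts over both libraries. Its close relative Egr3 had 377 counts (17.1 CPM) in dissociated cells and 27 counts (0.856 CPM) in whole glomeruli, a ratio of 19.9 (13.5 to 30.7). In whole glomeruli both were therefore at or below 1 CPM, while Egr1 was already abundant there.

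The NR4A genes were all higher in dissociated cells but by very different factors. Nr4a1 had 48153 counts in dissociated cells and 4632 in whole glomeruli, with a ratio of 14.8 (14.4 to 15.3). Nr4a3 had 4227 counts in dissociated cells and 120 in whole glomeruli, with a ratio of 50.3 (41.9 to 60.8), the 17th largest of all 12692 genes. Nr4a2 had 1161 counts in dissociated cells and 276 in whole glomeruli, with a ratio of 6.01 (5.26 to 6.87), the smallest rise of the 8. Beside these values, markers of mural cells (the mesangial, smooth muscle and renin cells) were lower in the dissociated library, where the 13 genes summed to 620 CPM against 3637 CPM in whole glomeruli, a ratio of 0.170; 3 of the 11 with at least 100 counts were higher there. What this loss of mural RNA did to the Nr4a2 ratio was not tested.

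Among the IER genes Ier2 and Ier3 were higher and Ier5 was not. Ier2 had 22040 counts in dissociated cells and 4385 in whole glomeruli, a ratio of 7.18 (6.95 to 7.41). Ier3 had 18726 counts in dissociated cells and 1360 in whole glomeruli, a ratio of 19.7 (18.6 to 20.8). Ier5 had 1847 counts in dissociated cells and 3156 in whole glomeruli, or 83.6 CPM (79.8 to 87.5) against 100 CPM (96.5 to 104), a ratio of 0.836 (0.789 to 0.885), and ranked 7675th. Ier5 was thus the one member that was slightly lower in dissociated cells. Summed markers were lower in dissociated cells for endothelial cells too (ratio 0.414, with 1 of 10 genes higher) and higher for podocytes (1.90, with 10 of 10 higher), and their part in the Ier5 value was not tested.

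In all, 8 of the 9 genes were at least 2-fold higher in dissociated cells and 0 at least 2-fold lower, where 10.7% and 19.3% of the 12692 genes passed those limits. The median ratio was 15.4 over the 9 genes and 0.988 over all 12692. Scaled also by exon length (GENCODE M21 exon union), the highest of the 9 in dissociated cells were Egr1 at 822 CPM per kb, Ier3 at 749, Ier2 at 655 and Nr4a1 at 621. In whole glomeruli they were Ier2 at 91.3 CPM per kb, Egr1 at 53.4, Nr4a1 at 41.8 and Ier3 at 38.1. Ier5, at 25.5 CPM per kb in dissociated cells and 30.5 in whole glomeruli, lay below these 4 genes in both libraries.

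**Figure D1:**
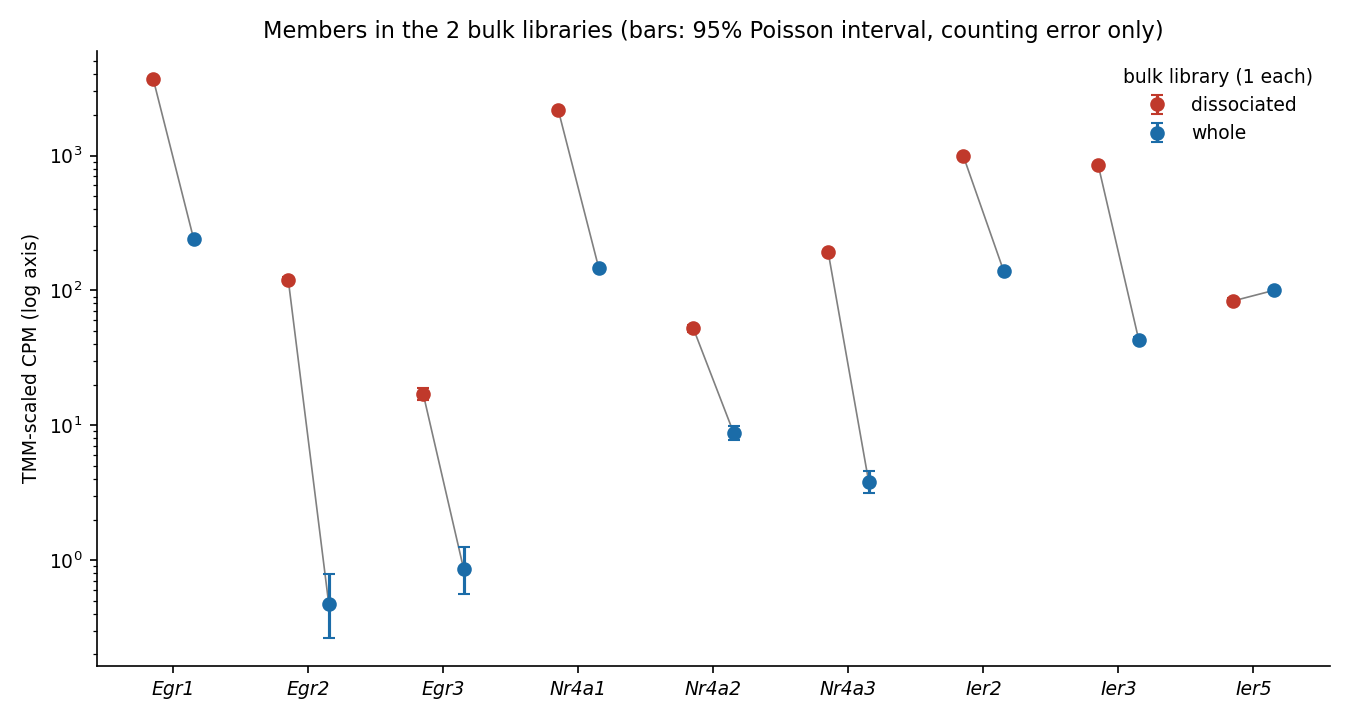
Each gene's level in the dissociated (left, red) and the whole (right, blue) bulk library, in TMM-scaled CPM on a log axis, with 95% Poisson intervals for counting error. 8 of the 9 lines fall steeply to the right, with Egr2 at 120 CPM (dissociated) and 0.475 CPM (whole), while Ier5 lies nearly flat at 83.6 CPM (dissociated) and 100 CPM (whole).

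Other genes of the response and its relay were counted against the same background. Of 39 other immediate-early genes with enough counts, 26 were at least 2-fold higher in dissociated cells and 2 at least 2-fold lower, with a median ratio of 3.40. The largest were the stress factor Atf3 (ratio 81.3), the small MAF factor Maff (60.3), the growth arrest gene Gadd45b (13.7) and the AP-1 subunit Fos (12.7). Of 18 genes of the ERK, p38 and kinase relay, 1 was at least 2-fold higher and 3 at least 2-fold lower (median 1.04). Of 14 serum response and CREB factors 2 were higher and 3 lower (median 0.878), and of 5 relatives of the EGR and NR4A families 2 were higher and 1 lower (median 1.37). With 10.7% of all genes higher and 19.3% lower, nothing is read from the counts of these last 3 lists.

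Drop-seq gave the cell types behind these levels. Of 15465 barcodes, 13993 cells with at least 300 genes and at most 20% mitochondrial UMIs (unique molecular identifiers, one per captured transcript) were kept, with 3528543 to 6411775 UMIs a library and medians of 816 to 1156 UMIs a cell; 3 barcodes of kept cells occurred in more than 1 library. Clusters built without the 9 genes and their pathway lists gave 10511 podocyte-like, 335 parietal epithelial-like, 1852 endothelial-like, 324 mural-like and 920 tubular-like cells, and 51 immune-like cells that were too few to test. Cells with at least 2 UMIs of the markers of each of 2 types made up 16.9% of podocyte-like and 33.6% to 42.9% of the other tested types. Median mitochondrial shares were 15.0% and 10.9% in the tubular-like clusters 0 and 8, and 3.48% to 6.96% in all other clusters. At a limit of 10% mitochondrial UMIs, 192 tubular-like cells were left. The part of this share in the tubular values was not tested. The 10 podocyte markers took 2.14% of UMIs in podocyte-like cells. Their share was 1.27% in parietal epithelial-like cells and between 0.167% (tubular-like) and 0.420% (endothelial-like) in the rest. The 8 parietal epithelial markers took 0.0812% of UMIs in parietal epithelial-like cells, and the 13 mural markers 0.0800% there. Parietal values thus stood beside a large podocyte share whose part in them was not tested. Levels below are UMIs per 1000000 UMIs of that type in a library (CPM), and folds are log2 folds of a type over the mean of the other 4 types (edgeR quasi-likelihood test, adjusted over 7557 genes).

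Together the 9 genes took the most RNA in podocytes, the cells whose foot processes carry the slit diaphragm. Their sum was 8113 ± 674 CPM in podocyte-like cells (SD, n = 4 libraries). It was 6806 ± 627 CPM for the parietal epithelial-like, 5341 ± 1064 CPM for the mural-like, 4538 ± 538 CPM for the endothelial-like and 2338 ± 278 CPM for the tubular-like cells. The tubular libraries did not overlap with those of any other type, while the others overlapped with their neighbours in this order. Egr1 made up 48.7% of these UMIs in podocyte-like cells. In mural-like cells it made up 28.5%, with Nr4a1 at 23.0% and Nr4a2 at 15.1%, and in tubular-like cells Ier3 led with 35.7%.

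Of the 8 genes with enough UMIs to test, 6 were higher and 2 lower in podocyte-like cells, where 25.4% and 20.6% of all tested genes were. In parietal epithelial-like cells 4 were higher and 1 lower (9.71% and 4.31% of all genes), and in endothelial-like cells 3 were higher and 3 lower (27.7% and 20.9%). In mural-like cells 4 were higher and 4 lower (11.9% and 9.34%), with a median log2 fold of -0.12 over all genes. In tubular-like cells 1 was higher and 6 were lower (27.0% and 26.3%). With library totals in place of TMM scaling, an alternative chosen after the data were seen, the median log2 fold of all genes was -0.36 in tubular-like cells (-0.05 with TMM) and 0.07 in mural-like cells (-0.12 with TMM). All genes then split into 1584 higher and 2982 lower in tubular-like cells (2043 and 1987 with TMM) and 1067 higher and 384 lower in mural-like cells (902 and 706 with TMM), and 0 members were higher in tubular-like cells. With TMM every tested gene was called in podocyte-like and in mural-like cells, and 3 of the 4 genes that were higher in mural-like cells were the NR4A genes.

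**Figure D2:**
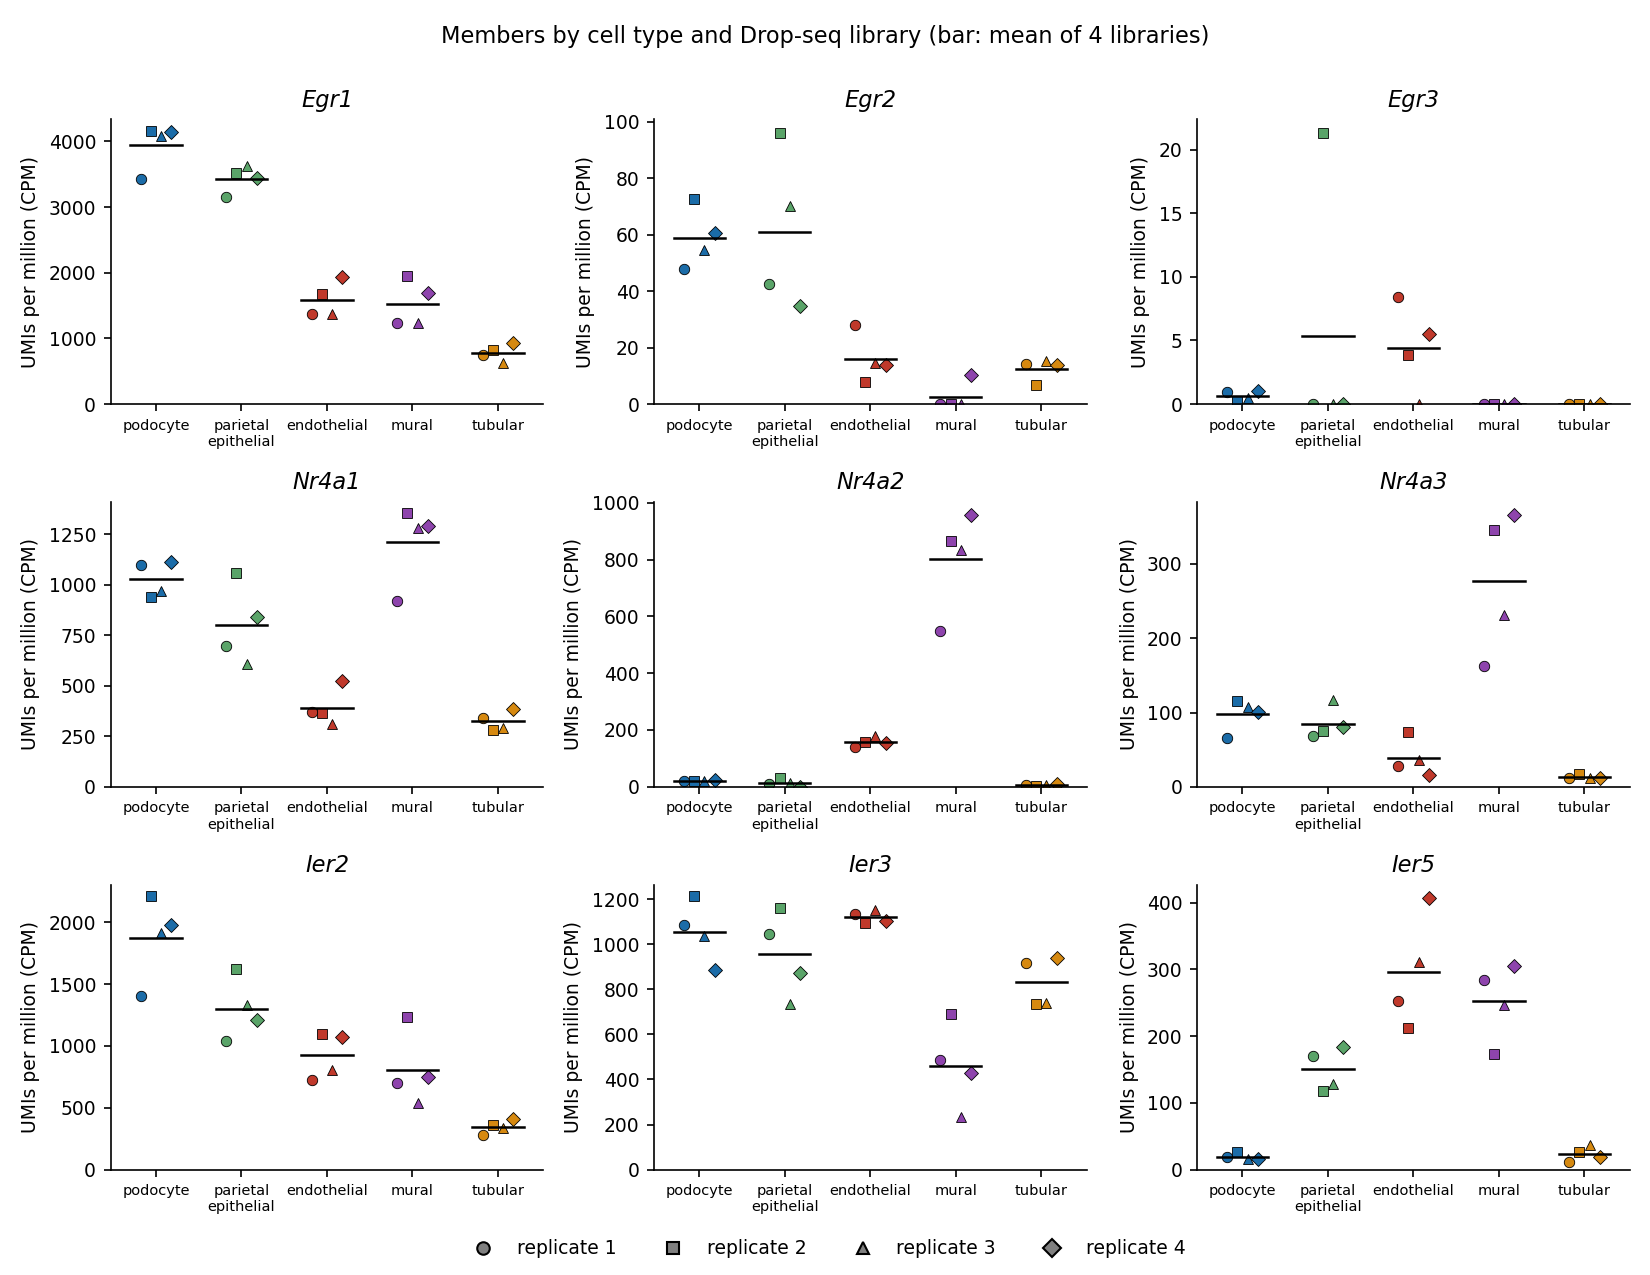
CPM of each gene by cell type, 1 panel a gene, with a point for each of the 4 Drop-seq libraries and a bar at their mean. Egr1 and Ier2 step down from podocyte to tubular cells, Nr4a2 stands out in mural cells at 547 to 956 CPM, and Ier5 is lowest in podocyte and tubular cells.

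Egr1 was highest in podocyte-like and parietal epithelial-like cells. In podocyte-like cells it had 3424, 4165, 4082 and 4138 CPM in replicates 1 to 4, and in parietal epithelial-like cells 3153, 3513, 3627 and 3442 CPM. Both groups lay above all libraries of endothelial-like (1366 to 1931 CPM), mural-like (1236 to 1950 CPM) and tubular-like cells (623 to 933 CPM). Podocyte-like cells had a log2 fold of 1.29 (SE 0.07, adjusted p = 1.77e-27, edgeR) and parietal epithelial-like cells one of 0.96 (SE 0.09, adjusted p = 6.93e-16, edgeR), each higher in 4 of 4 libraries. It was lower in tubular-like (-1.31), mural-like (-0.61) and endothelial-like cells (-0.32, adjusted p = 0.00115, edgeR). The last was not called when cells needed 500 genes (-0.19, adjusted p = 0.0987, edgeR). Over 12 alternatives the tubular fold lay between -1.62 and -0.49.

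Egr2 followed the same split at a much lower level. It had 58.8 ± 10.5 CPM in podocyte-like cells and 60.9 ± 28.0 CPM in the parietal epithelial-like ones, against 16.0 ± 8.60 CPM in endothelial-like and 12.5 ± 3.96 CPM in tubular-like cells (SD, n = 4). The podocyte libraries (47.7 to 72.5 CPM) did not overlap with the endothelial ones (7.73 to 28.1 CPM). The log2 fold was 2.05 (SE 0.26, adjusted p = 9.29e-11, edgeR) in podocyte-like cells. For parietal epithelial-like cells it was 2.02 (SE 0.48, adjusted p = 0.00108, edgeR), from 23 UMIs, and was not called without replicate 2 (1.40, adjusted p = 0.0991) or at Leiden resolution 0.5 (1.67, adjusted p = 0.141). In mural-like cells 1 UMI in 302272 was found, so that its call there (adjusted p = 0.0156, edgeR) rests on 1 UMI and was lost without replicate 1 (adjusted p = 0.0978), without replicate 3 (adjusted p = 0.0639) or with at least 500 genes a cell (adjusted p = 0.0732).

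Egr3 was rarely seen in Drop-seq. Only 16 UMIs were found in all kept cells, 8 of them in podocyte-like, 6 in endothelial-like and 2 in parietal epithelial-like cells, and it was not tested. The 0 UMIs in tubular-like cells allow up to 1.43 CPM and those in mural-like cells up to 9.92 CPM, counting error alone.

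Nr4a2 was the gene with the sharpest split between cell types. In mural-like cells it had 547, 864, 835 and 956 CPM in replicates 1 to 4, and in endothelial-like cells 140, 158, 180 and 153 CPM. In podocyte-like cells it had 20.6, 19.4, 20.4 and 24.2 CPM. Mural-like libraries lay above all endothelial-like ones, and these above all libraries of podocyte-like, parietal epithelial-like (0 to 32.0 CPM) and tubular-like cells (2.83 to 8.35 CPM). Its log2 fold was 4.99 (SE 0.20, adjusted p = 2.85e-38, edgeR) in mural-like and 2.30 (SE 0.20, adjusted p = 3.14e-17, edgeR) in endothelial-like cells, higher in 4 of 4 libraries of each. It was lower in podocyte-like (-1.36), parietal epithelial-like (-2.29) and tubular-like cells (-3.64). Over 12 alternatives the mural fold lay between 4.83 and 5.35. NR4A2 is best known for its part in dopamine neurons.

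Nr4a3 was also highest in mural-like cells, with 162, 346, 232 and 366 CPM in replicates 1 to 4, against 66.1, 116, 107 and 101 CPM in podocyte-like cells. Every mural-like library lay above those of the other tested types. The log2 fold was 2.47 (SE 0.25, adjusted p = 2.15e-14, edgeR) in mural-like and 0.70 (SE 0.14, adjusted p = 2.47e-05, edgeR) in podocyte-like cells. It was lower in tubular-like (-2.53) and endothelial-like cells (-1.02), a call lost in endothelial-like cells when cells with markers of 2 types were left out (-0.59, adjusted p = 0.161, edgeR).

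Nr4a1 was shared more evenly. It had 1214 ± 197 CPM in mural-like cells, 1032 ± 89.0 in podocyte-like cells and 801 ± 195 in the parietal epithelial-like ones, and 391 ± 91.8 in endothelial-like and 324 ± 47.7 in tubular-like cells (SD, n = 4). The first 3 types overlapped with their neighbours in this order, and all of them lay above the other 2. The log2 fold was 0.88 (SE 0.12) in mural-like and 0.79 (SE 0.08) in podocyte-like cells, and -0.93 in endothelial-like and -0.997 in tubular-like cells, with adjusted p from 2.28e-14 to 1.89e-09 (edgeR). The test was not passed in parietal epithelial-like cells (0.25, adjusted p = 0.178, edgeR), though it was when cells with markers of 2 types were left out (0.46, adjusted p = 0.0135) and with library totals in place of TMM scaling (0.36, adjusted p = 0.029).

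Mural-like cells formed 1 cluster that holds renin cells as well. In 33 cells with at least 5 UMIs of the renin gene Ren1, Nr4a2 had 474 ± 349 CPM from 17 UMIs, against 818 ± 181 CPM from 202 UMIs in 272 cells with 0 Ren1 UMIs (SD, n = 4). The ranges overlapped (0 to 827 CPM in the cells with Ren1 and 563 to 985 CPM in those without), and the level was lower in the cells with Ren1 within each of the 4 libraries. Mean Egr1 went the other way, at 2515 ± 1272 CPM from 74 UMIs in the cells with Ren1 against 1314 ± 302 CPM in those without. The ranges overlapped, and replicate 4 was reversed, at 1200 CPM with Ren1 against 1633 CPM without. Nr4a1, Nr4a3, Ier2, Ier3 and Ier5 each differed by less than the SD of the cells with Ren1, so no direction is read from them. Nr4a1 was at 1420 ± 975 CPM with Ren1 against 1125 ± 137 CPM without. Nr4a3 was at 272 ± 227 CPM from 8 UMIs with Ren1 against 266 ± 85.5 CPM without. Ier5 was at 236 ± 179 CPM from 6 UMIs with Ren1 against 254 ± 89.7 CPM without. This split was chosen after the data were seen and is a description.

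Ier2 had the same order of types as Egr1. It had 1405, 2210, 1910 and 1976 CPM in podocyte-like cells and 282, 360, 337 and 409 CPM in tubular-like cells in replicates 1 to 4, with no overlap. The other types lay between, at 1301 ± 246 CPM in parietal epithelial-like, 925 ± 189 in endothelial-like and 807 ± 299 in mural-like cells. The log2 fold was 1.28 (SE 0.08, adjusted p = 1.62e-26, edgeR) in podocyte-like and -1.44 (SE 0.10, adjusted p = 1.61e-22, edgeR) in tubular-like cells. Over 12 alternatives the tubular fold lay between -1.75 and -0.51. The call in parietal epithelial-like cells (0.55, adjusted p = 2.3e-05, edgeR) was lost at Leiden resolution 0.5 (0.14, adjusted p = 0.682), without the filter on low counts (0.24, adjusted p = 0.197) and at a limit of 10% mitochondrial UMIs (0.26, adjusted p = 0.227). That in mural-like cells (-0.44, adjusted p = 0.00468, edgeR) was lost in DESeq2 (adjusted p = 0.0601), without replicate 3 (0.0824), without replicate 4 (0.067), without cells carrying markers of 2 types (0.163) and with library totals in place of TMM scaling (-0.25, adjusted p = 0.167).

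Ier3 was the most evenly spread member. It had 1123 ± 26.0 CPM in endothelial-like, 1057 ± 137 in podocyte-like, 956 ± 188 in parietal epithelial-like and 833 ± 111 in tubular-like cells, each overlapping with its neighbour in this order, and 459 ± 189 CPM in mural-like cells (SD, n = 4). All mural-like libraries (232 to 691 CPM) lay below those of the other types, with a log2 fold of -1.33 (SE 0.15, adjusted p = 2.39e-12, edgeR). The fold was 0.55 in endothelial-like cells (SE 0.09, adjusted p = 4.02e-07, edgeR). Smaller differences were 0.38 in podocyte-like cells (adjusted p = 0.000127, edgeR; 0.0529 in DESeq2) and 0.27 in tubular-like cells (adjusted p = 0.0123, edgeR, higher in 3 of 4 libraries). That last direction rests on the TMM scaling: with library totals alone the fold was -0.03 (adjusted p = 0.84), and the mean CPM lay above that of mural-like cells and below those of the other types. The call was also lost without replicate 4 (0.18, adjusted p = 0.185), without the library block (0.28, adjusted p = 0.0613) and at a limit of 10% mitochondrial UMIs (0.12, adjusted p = 0.575).

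Ier5 ran against the podocyte pattern. It had 18.5, 25.5, 16.1 and 16.0 CPM in podocyte-like cells, against 253, 213, 311 and 408 CPM in endothelial-like and 284, 173, 247 and 305 CPM in mural-like cells in replicates 1 to 4. All podocyte-like libraries lay far below all of these, as did the tubular-like ones (11.4 to 36.5 CPM). The log2 fold was -2.76 (SE 0.17, adjusted p = 7.5e-26, edgeR) in podocyte-like, 2.18 (SE 0.15, adjusted p = 9.78e-24, edgeR) in endothelial-like and 1.78 (SE 0.24, adjusted p = 3.03e-09, edgeR) in mural-like cells. Its level in parietal epithelial-like cells was 150 ± 32.1 CPM, with a fold of 0.83 (adjusted p = 0.0157, edgeR), which turned to -0.28 (adjusted p = 0.738) when cells with markers of 2 types were left out; it was also not called without replicate 1 (0.69, adjusted p = 0.137), without replicate 4 (0.78, adjusted p = 0.0757) or without the filter on low counts (0.53, adjusted p = 0.359).

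**Figure D3:**
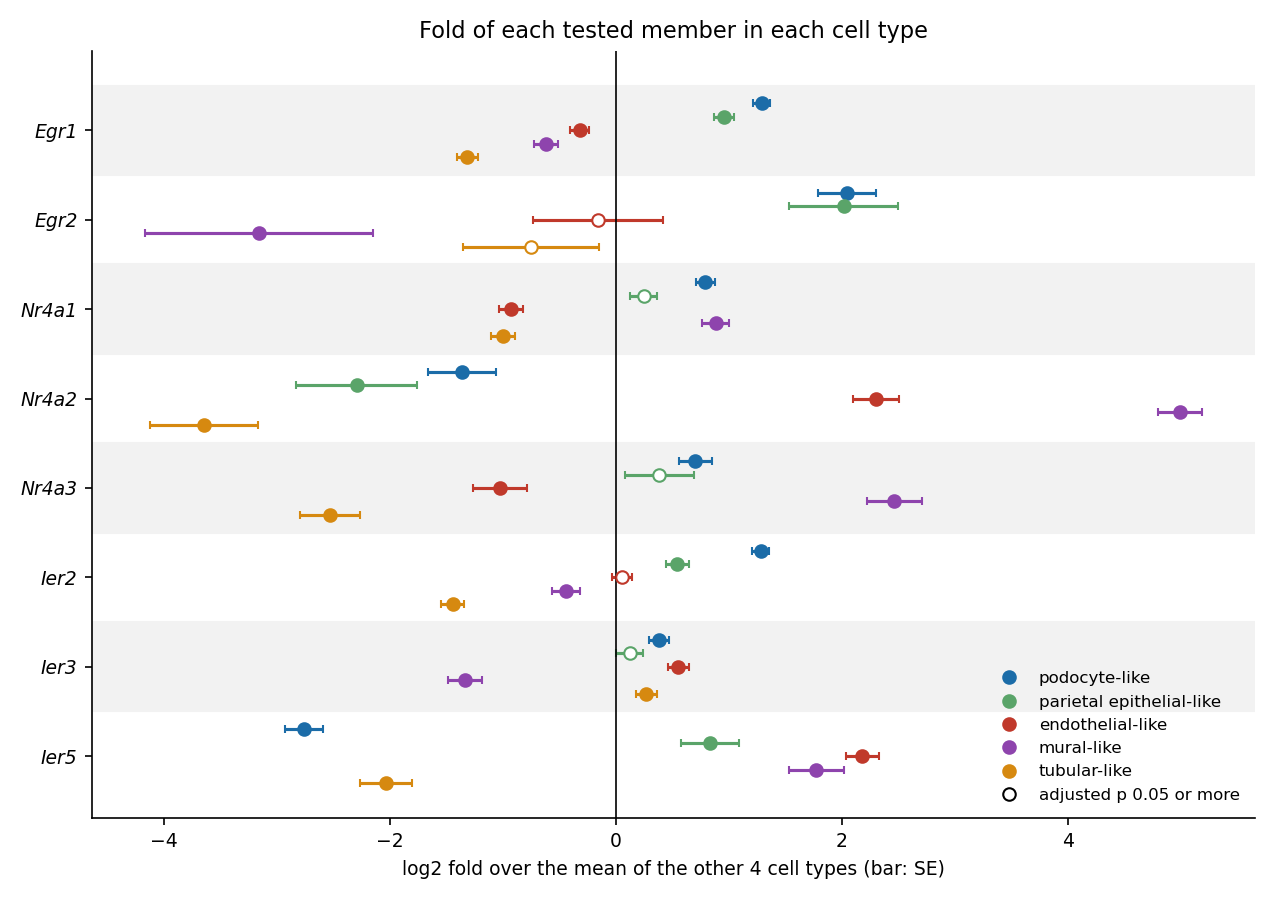
Log2 fold of each of the 8 tested genes in each cell type over the mean of the other 4, with SE bars. Filled points passed an adjusted p of 0.05. Nr4a2 spans the widest range, from -3.64 in tubular-like to 4.99 in mural-like cells, and Ier5 is negative in podocyte-like and tubular-like cells alone in this fit (in parietal epithelial-like cells it turned to -0.28 without cells carrying markers of 2 types).

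Most cells of every type held a UMI of at least 1 member when each cell was thinned to 500 UMIs. At least 1 of the 9 genes was seen in 91.5% of podocyte-like cells, 84.7% of those named parietal epithelial-like, 81.2% of the mural-like, 74.8% of the endothelial-like and 58.5% of the tubular-like cells. Unthinned, the shares were 95.2%, 92.5%, 91.1%, 82.4% and 85.3% at median depths of 1017, 975, 777, 639.5 and 1819 UMIs in that order of types; thinning left out 665, 21, 45, 378 and 20 cells. The podocyte gene Nphs1, which encodes the slit diaphragm protein nephrin, had a UMI in 38.6% of thinned podocyte-like cells. It still had a UMI in 7.27% of endothelial-like, 3.50% of tubular-like and 3.48% of mural-like cells, and in 28.3% of parietal epithelial-like cells. Whether free RNA, doublets or wrongly named cells lie behind this was not tested. Nr4a2 had a UMI in 30.4% ± 6.34 of mural-like, 6.53% ± 0.913 of endothelial-like and 1.04% ± 0.147 of podocyte-like cells (SD, n = 4), so even in mural-like cells it was not seen in most cells at this depth.

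Among the podocyte-like clusters, clusters 7 and 10 had the 2 lowest mean levels of each of the 8 tested members. The margin to the next cluster often lay within the SDs. Ier2 had 1594 ± 139 CPM in cluster 10 and 1607 ± 372 CPM in cluster 2. Ier5 had 16.7 ± 6.71 CPM in cluster 10 and 17.9 ± 2.11 CPM in cluster 1. At Leiden resolution 0.5 the cluster led by Metrnl was not among the 2 lowest for Egr1, Ier2 and Ier5. The 8 podocyte-like clusters differed in the sum of the 9 genes by a ratio of 1.59, from 8919 ± 685 CPM in cluster 3 to 5598 ± 347 CPM in cluster 10 (SD, n = 4), a cluster led by Gm23935, Lars2 and Gm15564. Cluster 7, led by Metrnl, Gsta4 and Pdia4, had the lowest Nr4a1 (637 ± 85.2 CPM against 1293 ± 131 CPM in cluster 3), the lowest Nr4a3 (39.9 ± 2.72 CPM against 126 ± 23.7 CPM in cluster 1) and the lowest Ier3 (614 ± 124 CPM against 1364 ± 132 CPM in cluster 2). Ier2 differed least among the abundant genes, with a ratio of 1.42 between the highest and the lowest cluster. Median depth differed too, from 618 UMIs in cluster 5 to 2010.5 in cluster 1. As the clusters were drawn from the same cells, these are descriptions.

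**Figure D4:**
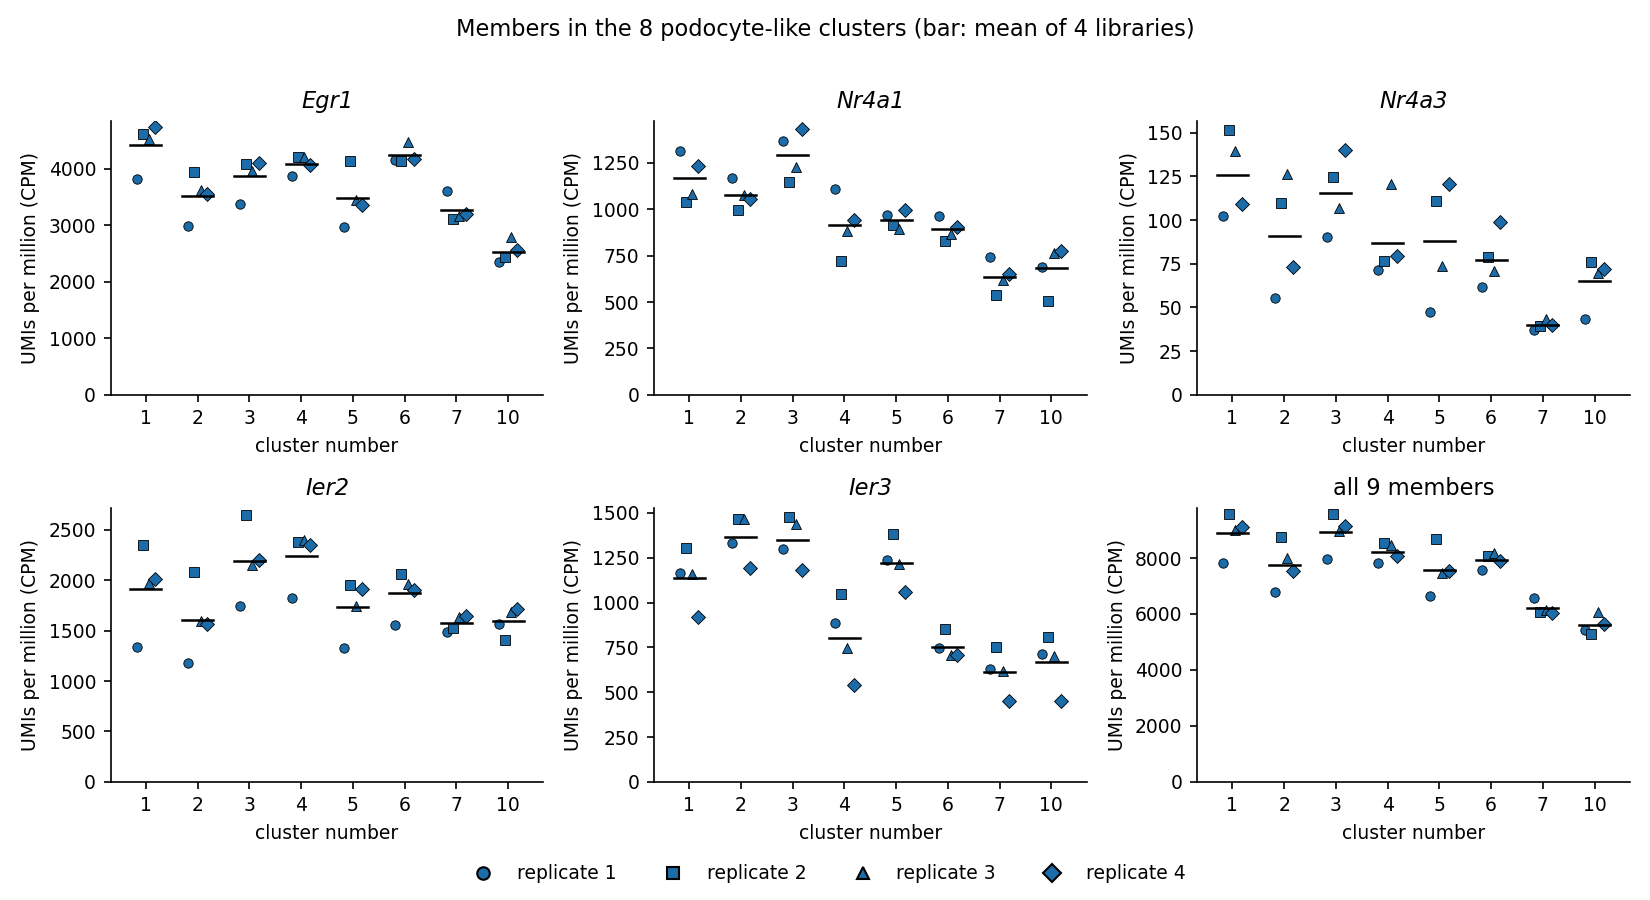
CPM of 5 genes and of the sum of all 9 in the 8 podocyte-like clusters, with a point a library and a bar at the mean of 4. Clusters 7 and 10 are the lowest in the sum, at means of 6198 and 5598 CPM.

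Endothelial-like cells split into clusters that differed in opposite directions. Cluster 13 (411 cells) was led by Fbln5, Cd93, S100a4, Fbln2 and Jag1, and cluster 12 (1441 cells) by Emcn, Ctla2a, Ednrb, Egfl7 and Cyp4b1. Egr1 was at 2361 ± 734 CPM in cluster 13 against 1354 ± 93.9 CPM in cluster 12, and the libraries did not overlap. Nr4a2 was lower in cluster 13, at 80.2 ± 44.3 CPM against 177 ± 18.9 CPM in cluster 12 (SD, n = 4), again without overlap. Its level in cluster 13 rests on 29 UMIs. Ier3 was higher in cluster 13 without overlap, at 1261 to 1596 CPM against 989 to 1124 CPM in cluster 12. Ier2 overlapped between them, at 827 to 1747 CPM in cluster 13 against 608 to 979 CPM in cluster 12, and was higher in cluster 13 within each of the 4 libraries.

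Other genes of the pathway, from lists of 63 tested genes, were counted in the same types. In podocyte-like cells 22 were higher and 17 lower (25.4% and 20.6% of all genes). The kinase Araf (1.16), the serum response factor gene Srf (1.13), the matricellular gene Ctgf (1.12) and the factor gene Klf6 (1.12) had the largest log2 folds. In mural-like cells 16 were higher and 10 lower (11.9% and 9.34% of all genes), led by Crem (3.31, SE 0.17, adjusted p = 4.92e-31, edgeR), which encodes activators and repressors at cyclic AMP response elements, ahead of Ier5l (2.28), Nfkbiz (2.14) and Gadd45g (1.98). In endothelial-like cells 31 were higher and 10 lower (27.7% and 20.9% of all genes), led by the ETS factor Elk3 (4.45), the kinase genes Plk2 (3.84) and Sgk1 (3.40) and the Ier5 relative Ier5l (3.20). In parietal epithelial-like cells 15 were higher and 6 lower (9.71% and 4.31% of all genes), led by Arc (2.84, higher in 3 of 4 libraries), Ctgf (2.60), Cyr61 (1.95) and Srf (1.43).

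In tubular-like cells 5 of the listed genes were higher and 44 lower, beside 27.0% and 26.3% of all genes. The pseudokinase gene Trib1 (2.77), Gadd45g (1.24), Hras (1.18) and the EGF receptor inhibitor gene Errfi1 (0.92) were the largest rises. The median log2 fold of the 37 other immediate-early genes tested was -1.12 in tubular-like cells, beside -0.05 over all genes, and 0.03 in podocyte-like cells, beside 0.01 over all genes. The members' own medians were -1.38 and 0.75.

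The genes closest to the members in profile were taken over 20 profiles (5 types in 4 libraries), which share libraries and depth. The members did not share 1 profile, with Pearson correlations between them from -0.621 (Egr2 with Nr4a2) to 0.952 (Egr1 with Ier2). The highest Pearson correlations with the mean profile of the tested members were those of Fosb (0.941), Itgb1 (0.941), Bcam (0.937), Tnfsf12 (0.929) and Csnk1a1 (0.929). Among single members, Egr1 was closest to Trib2 (0.966) and Nap1l1 (0.961), Ier2 to Itga3 (0.942) and Tjp1 (0.932), Egr2 to Raver2 (0.943) and 2810433D01Rik (0.922), and Nr4a1 to Fgfr1 (0.933) and Myl6 (0.928). Nr4a2 was close to Grip2 (0.966), Nr4a3 to Pde3a (0.952) and Mylk (0.945), Ier5 to Lmcd1 (0.958) and Akap12 (0.948), and Ier3, with the weakest match, to Sdf4 (0.882) and Yes1 (0.866).

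Summed over all barcodes, Drop-seq placed Egr1 at 3113 ± 215 CPM (SD, n = 4), beside 3317 plain CPM in the dissociated and 266 in the whole bulk library. Nr4a2 was at 45.8 ± 14.4 CPM, beside 47.3 CPM (dissociated bulk) and 9.72 CPM (whole bulk), and Ier5 at 53.7 ± 15.2 CPM, beside 75.2 CPM (dissociated bulk) and 111 CPM (whole bulk). Nr4a1 (839 ± 104 CPM, beside 1961 CPM dissociated and 163 CPM whole) and Egr2 (45.0 ± 6.13 CPM, beside 108 CPM dissociated and 0.528 CPM whole) were lower in Drop-seq than in the dissociated bulk library, and Ier2 was higher (1475 ± 221 CPM, beside 898 CPM dissociated and 154 CPM whole). Nr4a3 (79.9 ± 15.0 CPM, beside 172 CPM dissociated and 4.22 CPM whole) was lower too, and Egr3 lower by the largest factor (0.864 ± 0.496 CPM, beside 15.4 CPM dissociated and 0.95 CPM whole). Ier3 was higher (990 ± 80.4 CPM, beside 763 CPM dissociated and 47.9 CPM whole). The assays differ in what they count, so the values stand side by side without a test.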

How the data were processed

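The Drop-seq values were transcript (UMI) counts per gene and barcode, and the bulk values read counts per gene, all made by the authors before they were deposited. STAR and HTSeq are named, per the submitters' processing notes; the genome build, gene annotation, versions and use of strand are not given in the sources used here. Bulk totals were 24555632 counts (dissociated) and 28407317 (whole); 6.14% and 9.68% of reads had no gene and were left out with the other summary lines.

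Cells with at least 300 genes and at most 20% mitochondrial UMIs were clustered (scanpy 1.11.5, 2000 variable genes, 30 principal components, 15 neighbours, Leiden resolution 1) without the members, pathway lists and mitochondrial genes. Clusters were named from 7 marker lists, a list counting only with at least 3 markers in at least 2% of the cells, a condition added after an alternative named a cluster from undetected markers. Scrublet marked 0.164% of cells and was taken as not having worked, so no doublets were removed. UMI counts were summed per type and library and fitted in edgeR 4.0.16 (quasi-likelihood, TMM, library as a block because the types of a library come from 1 cell suspension, Benjamini-Hochberg, 0.05) (R 4.3.3), a type being set against the other 4 types' mean. DESeq2 1.42.0, library totals without TMM, other filters, a coarser clustering and leaving out each library were alternatives. Bulk ratios used TMM factors (0.900 dissociated, 1.11 whole), exact Poisson and binomial intervals at 95%, and genes with at least 100 counts. Floors are 3 counts of the total. Profiles were correlated on log2(CPM + 10).

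On simulated data with 100 genes changed at each size, the fit of 7557 genes recovered 83% of 2-fold and 98% of 4-fold changes in podocyte-like cells. The shares were 66% and 94% for tubular-like, 66% and 89% for endothelial-like, 41% and 71% for mural-like and 36% and 77% for parietal epithelial-like cells, with 5 to 11 false calls. The simulated types had equal profiles apart from the changed genes and no library effect beyond depth, whereas the real types differ in many genes. The shares and false calls hold for that setting and do not cover the scaling between types.

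All 9 members were named in the bulk, cell type and Drop-seq sum comparisons. Only some were named in the shares of cells, the Ren1 split and the cluster comparisons. From the lists, up to 4 genes a type with the largest fold past the threshold were named. By correlation, the 5 genes most like the mean profile and 2 most like each member were named. In bulk the 4 listed genes with the largest ratio were named after their values were seen. The members and lists were chosen with earlier results of these data known. Promoter sequences matched 6 of the 9 members. 1 gene of that rule is not reported here.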

Additional observations from a re-analysis of the deposited data

Results flagged for a closer look

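Of 48 groups of 4 libraries, 4 held a library far from the others. The rule flags about 1 in 20 groups of normally spread values, a rate that does not hold for few UMIs. A group with UMIs in 1 library alone is always flagged. The 48 groups include the summed members, which are not independent of the single ones. Egr1 in podocyte-like cells was lower in replicate 1, at 3424 CPM from 11132 UMIs, than in replicates 2 to 4 (4082 to 4165 CPM). The other 3 rest on few UMIs. Egr3 in parietal epithelial-like cells was at 21.4 CPM in replicate 2 from 2 UMIs, Egr2 in mural-like cells at 10.2 CPM in replicate 4 from 1 UMI, and Egr2 in tubular-like cells at 6.60 CPM in replicate 2 from 7 UMIs.

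The 51 immune-like cells were in no comparison. Over 4 libraries they held 52 UMIs of Egr1, 36 of Ier3, 21 of Ier2, 19 of Nr4a1, 8 of Ier5 and 7 of Nr4a3, each above the 3 that a count of 0 allows.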

How the results depend on the processing

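Of 470 log2 folds of single members under alternatives, 433 kept their direction and side of the threshold, 22 lost the call, 2 gained it (both Nr4a1 in parietal epithelial-like cells) and 13 changed sign; the causes were not tested except where stated. Of 27 bulk ratios 7 left their counting interval, all with plain CPM, which moved the median of all genes to a log2 ratio of -0.32 by construction and gave ratios from 0.677 (Ier5) to 205 (Egr2).

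Members higher in parietal epithelial-like cells numbered 2 without the filter on low counts, with at most 10% mitochondrial UMIs and at Leiden resolution 0.5, and 3 to 4 with each library left out. Members lower in mural-like cells numbered 2 without cells carrying markers of 2 types, where Egr2 was not tested, and 2 to 4 with each library left out. Without the replicate block the number higher in tubular-like cells was 0, as at 10% mitochondrial UMIs, and 0 to 1 with each library left out; the block changed no other count of members. Egr2 was not tested at 10% mitochondrial UMIs either.

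With library totals in place of TMM scaling, chosen after seeing the data, 0 members were higher in tubular-like cells, Ier3 there was at -0.027, and 4 of the other listed genes were lower in mural-like cells; this scaling moves all genes of a type together by construction.

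Sign changes without a call arose when single libraries were left out. The folds then ranged from -0.68 to 1.03 for Egr2 in endothelial-like cells, from -0.98 to 0.19 for Egr2 in tubular-like cells and from -0.014 to 0.089 for Ier2 in endothelial-like cells, each with the sign changed without replicate 4. In parietal epithelial-like cells they ranged from -0.080 to 0.34 for Nr4a1 and from -0.074 to 0.19 for Ier3, negative without replicate 2. Without the filter on low counts these were -0.057 and -0.18, and at resolution 0.5 they were -0.12 and -0.062. Ier2 in endothelial-like cells was at -0.28 (adjusted p = 0.0381, edgeR) at 10% mitochondrial UMIs, a call the main fit lacked, and at -0.10 without mixed cells. Ier5 in parietal epithelial-like cells was at -0.28 without mixed cells.

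Of the other listed genes, those lower in parietal epithelial-like cells numbered 10 without the filter and 3 to 6 with each library left out. Those lower in mural-like cells numbered 5 in DESeq2, 6 with at least 500 genes a cell, 5 at 10% mitochondrial UMIs and 6 to 8 with each library left out. At 10% mitochondrial UMIs, where 40 of 63 were tested, 18 were higher in endothelial-like cells, and 1 was higher and 25 lower in tubular-like cells. Shares of cells with any member were 95.2% (podocyte-like), 92.5% (parietal epithelial-like), 82.4% (endothelial-like), 91.1% (mural-like) and 85.3% (tubular-like) without thinning, and 96.7%, 92.6%, 87.8%, 90.8% and 74.5% at 800 UMIs. Leaving out each library, chosen after seeing the data for the clusters and shares, moved the cluster ratio between 1.52 and 1.64. The few mural-like and parietal epithelial-like cells, 38 to 116 a library, limit calls there most.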
